A study of Mus musculus with 32 samples.

Results

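The 10 genes described here encode the PPAR, RXR and PGC-1 regulators of fat burning and mitochondrial biogenesis: Ppara, Ppard, Pparg, Rxra, Rxrb, Ppargc1a, Ppargc1b, Esrra, Nrf1 and Tfam. They were chosen by name, and all 10 were found among the 32544 genes of the count table and passed the low-count filter in every comparison. RNA was measured in kidney cortex of 32 mice of 25 weeks of age, 4 in each combination of sex, genotype and treatment. All mice carried the Col4a3 tm1Dec allele on the C57BL/6J background. Alport mice were Col4a3-/-, which lack a chain of the type IV collagen of the glomerular basement membrane and develop chronic kidney disease, and control mice were Col4a3+/-, so the controls also carry 1 mutant allele and are not wild type. The mutant allele is constitutive and is therefore carried by every cell. Mice of each genotype received vehicle or nicotinamide riboside (NR), a precursor of the cofactor NAD+. The questions were how the mRNA of these regulators differed in Alport kidneys, and whether it differed with NR in diseased and in healthy mice.

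PPARα, PPARβ/δ and PPARγ (Ppara, Ppard, Pparg) are nuclear receptors that are switched on by fatty acids and their derivatives. Each binds DNA as a pair with a retinoid X receptor (Rxra, Rxrb), and PPARα in the kidney is best known for driving fatty acid oxidation in the proximal tubule, which burns fat for most of its energy. PGC-1α and PGC-1β (Ppargc1a, Ppargc1b) bind no DNA themselves but are recruited as coactivators by PPARα, by the estrogen-related receptor α (Esrra) and by NRF1, which turn on nuclear genes of the respiratory chain. Tfam, a target of NRF1, is carried into mitochondria, where it packages mitochondrial DNA and starts its transcription. PGC-1α and PPARα are controlled to a large degree by ligand binding and by modification of the protein, so that mRNA is only 1 of the levels at which they act.

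Libraries held 16621944 to 27778797 counts (median 22071395). Col4a3 mRNA was at 48.8 to 83.2 CPM (the count relative to the library size, scaled by TMM) in the 16 Alport mice and at 105 to 201 CPM in 12 of the 16 controls, while the 4 NR-treated male controls ranged from 59.3 to 160 CPM and overlapped the Alport mice. The defining markers of the proximal tubule, Slc34a1 and Lrp2, were present in every library (at least 1080 and 665 CPM), whereas those of fat cells, Adipoq and Lep, were at 0 in 26 and 29 of the 32 libraries and at most 0.570 and 0.150 CPM in the others. Plin1 and Lipe, also made by fat cells, were above 0 in every library, at up to 2.85 and 67.7 CPM. The RNA comes from whole cortex, so that fewer cells of a type and less RNA per cell cannot be told apart.

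The sequence just upstream of 1 annotated start site is shown for each of the 5 members that were lower in Alport mice of both sexes, to let a reader see what these promoters do and do not have in common. Capitals mark matches, on either strand, to 7 motifs that were searched in the 250 bases before the start: the NRF1 site (GCGCA and GCGC with 1 base between them), the ERR element TCAAGGTCA, the PPAR-RXR element (AGGTCA repeated with 1 base between the copies), the ETS site CCGGAAG, the Sp1 box GGGCGG, the E-box CACGTG and the cyclic AMP element TGACGTCA. The motifs share no letters with each other in the stretches shown. Bases are RefSeq sequence of GRCm38.p6, read 5′ to 3′ on the strand of the gene, without exonic bases except for Tfam, where 30 bases around the ETS site are given because the window lies within an annotated exon. The stretches are chr15:85735714-85735775 (plus strand) for Ppara, chr2:27676951-27677200 (plus) for Rxra, chr5:51567727-51567975 (minus) for Ppargc1a, chr19:6921814-6922058 (minus) for Esrra and chr10:71238074-71238103 (minus) for Tfam.
Ppara: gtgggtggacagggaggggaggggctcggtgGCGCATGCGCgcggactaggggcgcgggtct
Rxra: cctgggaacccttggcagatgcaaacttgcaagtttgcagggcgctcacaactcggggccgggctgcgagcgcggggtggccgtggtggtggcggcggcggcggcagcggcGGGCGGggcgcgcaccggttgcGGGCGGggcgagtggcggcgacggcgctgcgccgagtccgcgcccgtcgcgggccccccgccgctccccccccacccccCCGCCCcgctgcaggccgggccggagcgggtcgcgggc
Ppargc1a: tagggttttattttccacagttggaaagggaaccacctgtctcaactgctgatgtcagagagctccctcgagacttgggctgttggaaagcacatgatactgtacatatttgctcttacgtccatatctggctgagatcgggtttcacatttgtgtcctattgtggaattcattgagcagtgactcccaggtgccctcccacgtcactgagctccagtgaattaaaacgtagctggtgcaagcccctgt
Esrra: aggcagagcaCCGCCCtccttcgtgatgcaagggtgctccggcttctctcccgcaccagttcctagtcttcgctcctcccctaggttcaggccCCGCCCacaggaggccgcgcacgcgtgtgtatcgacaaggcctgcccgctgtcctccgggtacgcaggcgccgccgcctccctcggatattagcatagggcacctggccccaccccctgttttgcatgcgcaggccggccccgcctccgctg
Tfam: tcctgccgcggaCCGGAAGtccgggcttcc

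Ppara was the only member whose window held an NRF1 site, 31 bases before the start, a motif found in 3.74% of the 32851 mouse windows of the same length. Tfam and Rxrb held an ETS site (6.91% of windows), 47 and 195 bases before the start. Sp1 boxes, present in 32.7% of windows, stood before Ppara, Ppard, Pparg, Rxra, Rxrb, Esrra, Nrf1 and Tfam. The Ppargc1a window held none of the 7 motifs, and neither did window 2 of Rxra, window 2 of Nrf1 or window 3 of Pparg. No member window matched the ERR element (0.387% of windows), the PPAR-RXR element (0.0335%), the E-box (6.02%) or the cyclic AMP element (1.55%), which says only that these letters are not in these 250 bases. Windows were given for 9 of the 10 members, with 2 each for Rxra, Rxrb and Nrf1 and 3 for Pparg. Of the 2 for Rxra, window 1 is shown.

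Levels were compared between members per kb of exon. In vehicle-treated male controls, Esrra was highest at 91.5 ± 6.1 CPM per kb (SD, n = 4), followed by Rxra at 38.5 ± 3.8, Ppara at 29.5 ± 3.3 and Rxrb at 20.4 ± 2.1 CPM per kb. The coactivator gene Ppargc1a (13.02 ± 1.2 CPM per kb) and Tfam (12.5 ± 0.54 CPM per kb) overlapped between mice, and so did Nrf1 (3.35 ± 0.34 CPM per kb) and Ppargc1b (3.03 ± 0.68 CPM per kb). Ppard stood between these pairs at 7.40 ± 0.70 CPM per kb, and Pparg was lowest at 0.353 ± 0.19 CPM per kb. Among the 3 PPAR genes Ppara was thus the highest per length, and Pparg rested on only 8 to 62 counts per library. In vehicle-treated female controls the order was alike at both ends, with Ppara at 31.2 ± 2.5 and Rxra at 28.7 ± 1.4 CPM per kb overlapping between mice.

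**Figure D1:**
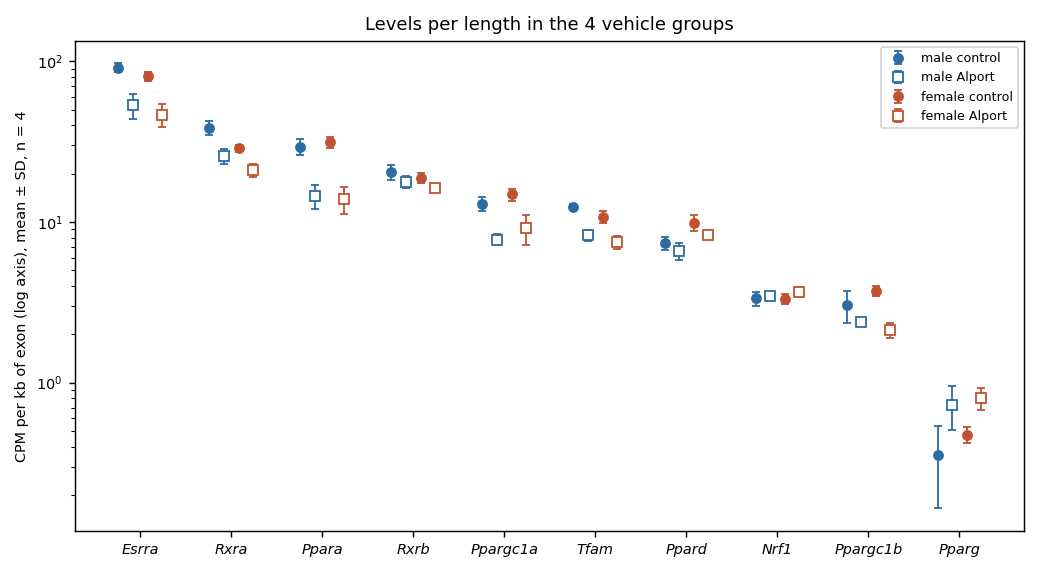
Mean level per kb of exon (log axis, error bars SD, n = 4 mice) of each member in the 4 vehicle-treated groups, filled circles for controls and open squares for Alport mice, blue for males and orange for females. Esrra is highest and Pparg lowest in every group, and Ppara, Rxra, Ppargc1a, Esrra and Tfam are lower in Alport mice of both sexes.

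In Alport mice the mRNAs of PPARα, RXRα, PGC-1α, ERRα and TFAM were lower than in controls in both sexes, Pparg was higher, and Ppard, Rxrb and Nrf1 did not pass the test. Between vehicle-treated males, 5 of 10 members fell and 1 rose, against 51% of all 15286 genes tested that changed in either direction and 24.2% that fell. Between vehicle-treated females, 6 of 10 fell and 1 rose, against 45.8% of 15709 genes that changed and 21.8% that fell. The median log2 fold change of the 10 members was −0.38 in males and −0.45 in females, and that of all genes tested was −0.0013 and −0.0008. With this many genes changed in the whole tissue, the counts alone do not set the members apart.

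Among the receptors, Ppara was at 101, 114, 114 and 89.5 CPM in the 4 vehicle-treated male controls and at 51.2, 49.6, 41.7 and 62.4 CPM in the 4 male Alport mice. Every Alport mouse was below every control. The log2 fold change was −0.94 (SE 0.12, edgeR adjusted p = 5.32e-05), or 0.521 times the control level. In females Ppara was at 107, 120, 100 and 115 CPM in controls and at 40.7, 61.3, 42.5 and 51.0 CPM in Alport mice. The groups were again apart, with a log2 fold change of −1.14 (SE 0.13, adjusted p = 8.69e-05), or 0.454 times the control level. Ppara had the lowest log2 fold change of the 10 members in both sexes.

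Pparg, the receptor of fat cell differentiation, went the other way at a very low level. It was at 0.638, 0.385, 1.43 and 0.904 CPM in male controls and at 1.94, 1.38, 2.37 and 1.22 CPM in male Alport mice. Control mouse 3 lay above the 2 lowest Alport mice, and the log2 fold change of 1.14 (SE 0.39) had an adjusted p of 0.0277. That call was lost without control mouse 1, 2 or 4 or Alport mouse 1 or 3, with adjusted p between 0.0532 and 0.0839. In females Pparg was at 1.07, 1.24, 0.980 and 1.23 CPM in controls and at 1.61, 2.30, 1.78 and 1.92 CPM in Alport mice, without overlap, and the log2 fold change was 0.78 (SE 0.21, adjusted p = 0.0124), which in 1 fit of all 32 mice had an adjusted p of 0.122. Of 7 fat cell markers, Adipoq and Lep were at 0 in all 8 vehicle-treated Alport mice, and Lipe, the most abundant, fell in both sexes (log2 fold change −0.38, SE 0.10 in males and −0.41, SE 0.07 in females). The 7 summed to 26.8 to 33.6 CPM in male controls and 20.6 to 25.0 CPM in male Alport mice, and to 29.8 to 32.3 against 21.4 to 25.2 CPM in females. These sums are mostly Lipe, with a median of 30.5 CPM over all libraries, where Plin1 came next at 0.418 CPM. They do not measure the number of fat cells. Many markers of macrophages, lymphocytes, fibroblasts, endothelial cells and podocytes rose at the same time, with counts given below. The summed level of 10 macrophage and lymphocyte markers was 75.5 to 96.3 CPM in male controls and 483 to 666 CPM in male Alport mice. In females it was 89.4 to 165 CPM against 386 to 698 CPM. The part of any of these cell types in the Pparg result was not tested. Ppard, the widely expressed subtype, was at 21.5 to 26.9 CPM in male controls and 18.9 to 25.0 CPM in male Alport mice (log2 fold change −0.08, SE 0.10, adjusted p = 0.557). In females Ppard was at 26.8 to 34.8 and 25.7 to 28.1 CPM (−0.20, SE 0.08, adjusted p = 0.0717), and without female control mouse 3, the lowest control, the value was −0.28 with an adjusted p of 0.00734.

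Of the binding partners, Rxra was at 202, 208, 209 and 168 CPM in male controls and at 133, 132, 114 and 147 CPM in male Alport mice. All Alport mice were below the controls, and the log2 fold change was −0.49 (SE 0.10, adjusted p = 0.00116). In females Rxra was at 149, 145, 137 and 154 CPM in controls and at 98.9, 120, 100 and 110 CPM in Alport mice, also without overlap (−0.41, SE 0.08, adjusted p = 0.00173). Rxrb, the other retinoid X receptor, was at 53.2 to 65.2 CPM in male controls and 46.7 to 56.0 CPM in male Alport mice (−0.11, SE 0.09, adjusted p = 0.365). In females Rxrb was at 49.5 to 57.6 and 46.5 to 48.5 CPM, groups that did not overlap but missed the threshold (−0.17, SE 0.07, adjusted p = 0.0583). Without female control mouse 1 the Rxrb value was −0.22 with an adjusted p of 0.0191.

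The coactivator Ppargc1a was at 86.6, 90.4, 87.0 and 72.4 CPM in male controls and at 53.3, 44.7, 50.3 and 52.6 CPM in male Alport mice. The lowest control was above the highest Alport mouse, and the log2 fold change was −0.66 (SE 0.09, adjusted p = 8.48e-05), or 0.634 times the control level. In females Ppargc1a was at 102, 93.1, 103 and 85.9 CPM in controls and at 54.3, 76.8, 48.3 and 56.2 CPM in Alport mice. Alport mouse 2 came nearest to the controls, and the log2 fold change was −0.66 (SE 0.13, adjusted p = 0.0022). Ppargc1b was at 15.5, 13.7, 13.3 and 13.3 CPM in female controls and at 7.03, 8.18, 7.68 and 9.06 CPM in female Alport mice, a clear gap with a log2 fold change of −0.77 (SE 0.11, adjusted p = 0.000328). In males it was at 11.5, 13.5, 12.4 and 7.71 CPM in controls and at 8.91, 8.60, 8.47 and 9.49 CPM in Alport mice. Male control mouse 4 lay below all male Alport mice and the other 3 controls lay above them, so that the log2 fold change was −0.26 (SE 0.16, adjusted p = 0.185) with that mouse and −0.41 (adjusted p = 0.0125) without it. The difference between the sexes in this change was −0.53 (SE 0.20, adjusted p = 0.262) and did not pass the threshold, and without that mouse it was −0.39 (adjusted p = 0.312).

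Downstream of the coactivators, Esrra was at 206, 188, 221 and 205 CPM in male controls and at 109, 115, 104 and 150 CPM in male Alport mice. The groups were apart, with a log2 fold change of −0.69 (SE 0.11, adjusted p = 0.000296). In females it was at 196, 176, 172 and 179 CPM in controls and at 82.4, 119, 99.8 and 116 CPM in Alport mice (−0.75, SE 0.11, adjusted p = 0.000445), again apart. Exons of Trmt112, on the opposite strand, cover 1.66% of Esrra exon bases and Mir6990 covers 2.07%, and the strand setting of the counting is not given in the sources used here. Nrf1 did not pass the test: it was at 15.4 to 19.4 CPM in male controls and 18.2 to 18.9 CPM in male Alport mice (0.13, SE 0.09, adjusted p = 0.272). In females Nrf1 was at 16 to 19.1 and 17.8 to 21 CPM (0.18, SE 0.09, adjusted p = 0.12). Tfam, which acts inside mitochondria, was at 54.5, 52.0, 57.8 and 54.6 CPM in male controls and at 36.3, 33.7, 35.1 and 40.1 CPM in male Alport mice. No mice overlapped, and the log2 fold change was −0.51 (SE 0.08, adjusted p = 0.000169). In females Tfam was at 53.3, 47.5, 44.5 and 44.1 CPM in controls and at 30.6, 37.5, 30.7 and 32.6 CPM in Alport mice (−0.49, SE 0.09, adjusted p = 0.00114), again with every Alport mouse below every control.

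**Figure D2:**
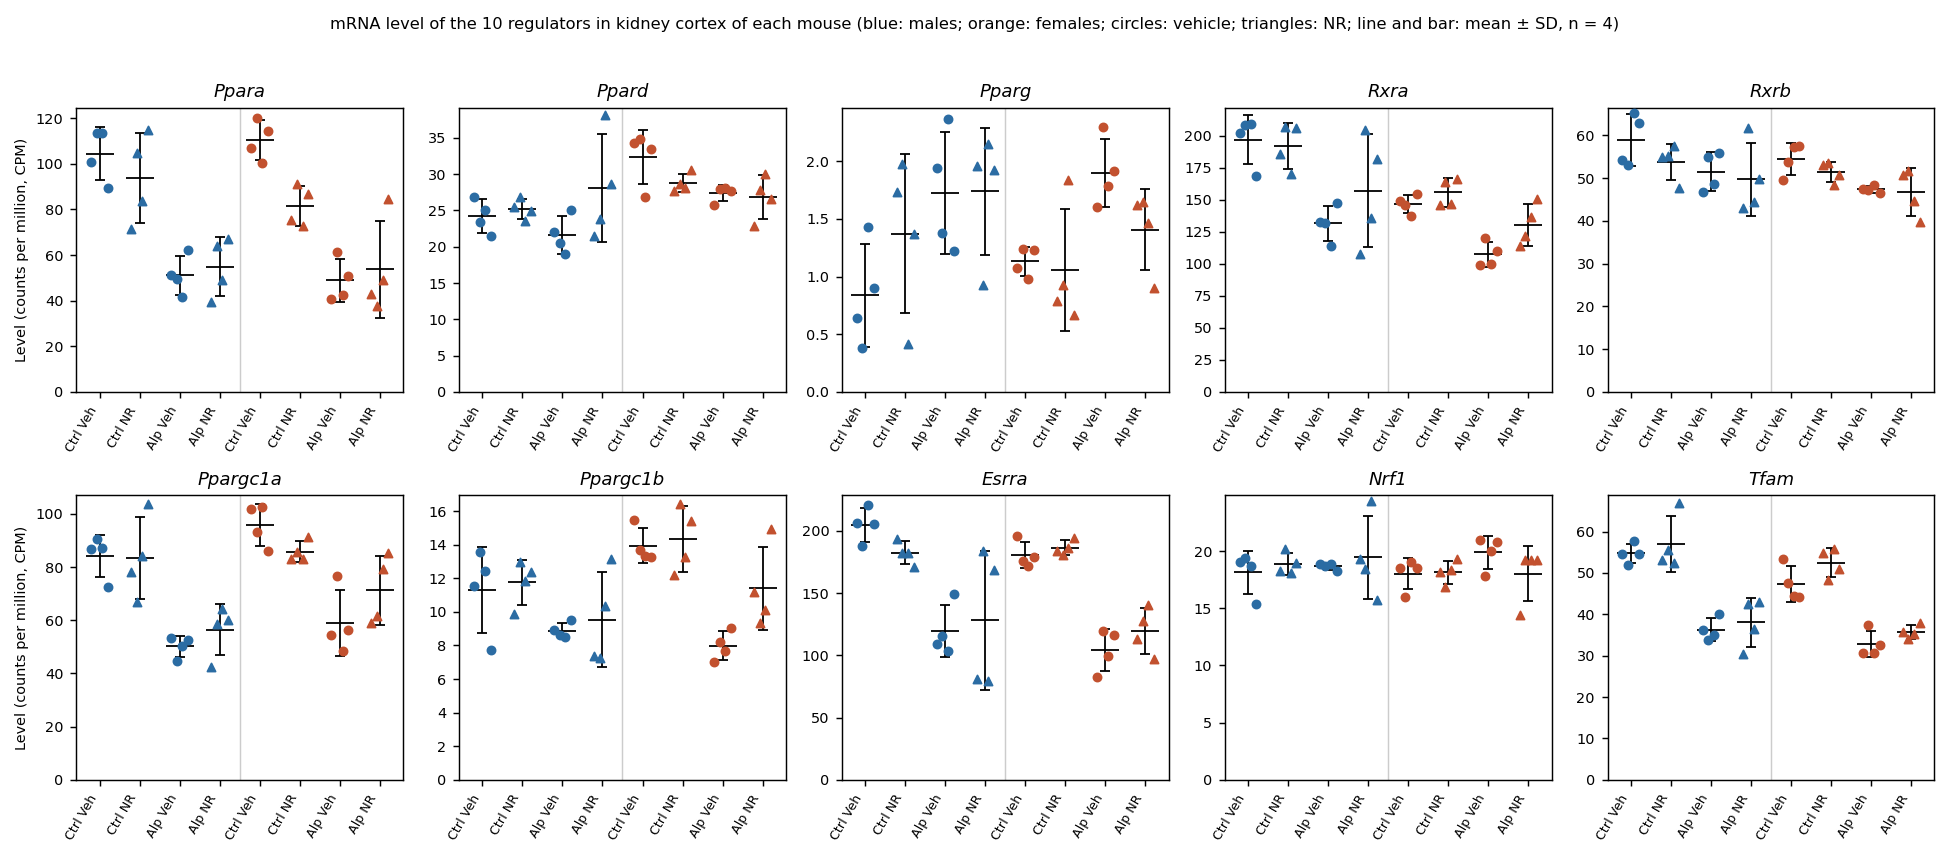
Level of each member in each of the 32 mice (CPM, axes from 0), with the mean and SD of the 4 mice of each group as a line and bar, males in blue, females in orange, vehicle as circles and NR as triangles. The vehicle-treated Alport mice of both sexes lie below their controls for Ppara, Rxra, Ppargc1a, Esrra and Tfam, while Nrf1 stays between 14.4 and 24.4 CPM in all 32 mice.

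Non-overlap between groups held for 5 members in males and 8 in females, where 50.6% and 44.4% of all genes had it. Markers of the cells that the cortex consists of moved with these changes. All 14 proximal tubule markers were lower in male Alport mice and 12 of 14 in female Alport mice, where 1 was higher, with summed levels of 36863 to 37625 CPM in male controls against 11230 to 19544 CPM, and of 17113 to 22528 CPM in female controls against 7549 to 12480 CPM. The median log2 fold change of these markers was −1.12 in males and −0.95 in females, lower than the value of Ppara in males and between those of Ppara and Ppargc1b in females. Of 9 markers of the distal nephron, 6 fell in either sex. All 9 fibroblast markers rose in both sexes, as did 10 and 8 of 10 immune cell markers, 7 and 4 of 8 endothelial markers and 5 of 6 podocyte markers in males and females. The part of these cell types in the result was not tested.

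Many other partners and cofactors of the pathway, from a list of 26 genes, fell alongside. In male Alport mice 12 of 25 tested were lower and 2 higher, where 24.2% of all genes fell. In females 14 of 26 were lower and 2 higher, where 21.8% of all genes fell. The lowest p in males belonged to Klf15, a PGC-1α-linked factor of fasting metabolism (log2 fold change −1.32, SE 0.12, adjusted p = 4.18e-06), and to Prkaa2, a catalytic subunit of the energy sensor AMPK (−0.90, SE 0.09, adjusted p = 6.73e-06). In females they belonged to Hnf4a, a master regulator of proximal tubule identity (−0.81, SE 0.11, adjusted p = 0.000267), and to Nr1h4, the bile acid receptor FXR (−0.52, SE 0.08, adjusted p = 0.000516). Pprc1, another PGC-1 family coactivator, was among those that rose in both sexes (0.59, SE 0.14 in males and 0.58, SE 0.11 in females), and was named after its values were seen.

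The genes that these regulators act on were lower as well. Of the PPAR targets, 22 of 32 tested fell and 1 rose in male Alport mice (median log2 fold change −0.57), and 27 of 33 fell and 1 rose in females (median −0.55). Examples in males were Slc27a2, a very-long-chain fatty acid transporter (−1.17, SE 0.14, adjusted p = 2.71e-05), and Cpt1a, the gate for fatty acid entry into mitochondria (−0.76, SE 0.10, adjusted p = 8.16e-05), and in females Acsl1, which activates fatty acids (−0.88, SE 0.12, adjusted p = 0.00024). The 1 target that rose in either sex was Plin2, a lipid droplet coat protein, named after its values were seen. Of nuclear genes of the respiratory chain and citric acid cycle, the usual targets of ERRα and NRF1, 22 of 24 fell in males and 23 of 24 in females, with Ndufs1 of complex I at −0.84 (SE 0.10, adjusted p = 2.45e-05) and −0.74 (SE 0.11, adjusted p = 0.000418). Of 16 tested genes that copy and transcribe mitochondrial DNA beside Tfam, 10 fell in each sex, among them Tfb2m, the transcription factor that opens mitochondrial promoters (−0.56, SE 0.08, adjusted p = 9.78e-05 in males). Of the 13 mRNAs encoded by mitochondrial DNA, 12 fell in each sex with medians of −0.73 and −0.71. mt-Atp8 was the exception in both sexes. Of all genes tested, 24.2% fell in male and 21.8% in female Alport mice. The proximal tubule markers had medians of −1.12 and −0.95, and the part of that cell type in these falls was not tested.

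NR treatment of Alport mice left all 10 members short of the threshold in both sexes. In males edgeR called 0 of 10 members and 0 of 15500 genes, which is 0%, and 0 members and 5.06% of genes were under an unadjusted p of 0.05. No member was free of overlap between the groups, as 3.42% of genes were. Over the whole table DESeq2 called 68 genes and the fit of all 32 mice 88. In females edgeR called 0 of 10 members, where 0.477% of 15712 genes were called, and 2 members and 16.7% of genes were under an unadjusted p of 0.05. Over the whole table DESeq2 called 695 genes in females and the fit of all 32 mice 253. DESeq2 and limma-voom also called 0 members in both sexes. Median log2 fold changes were 0.09 in males and 0.14 in females.

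Among NR-treated male Alport mice, mice 1 and 3 differed from mice 2 and 4 in several members. Esrra was at 80.7, 184, 79.1 and 169 CPM, where vehicle-treated male Alport mice had 109, 115, 104 and 150 CPM. Thus 2 treated mice lay below and 2 above all vehicle-treated mice, and the log2 fold change was 0.09 (SE 0.30, adjusted p = 0.985). Rxra was at 107, 204, 136 and 182 CPM (0.25, SE 0.20, adjusted p = 0.939). Ppara was at 39.2, 64.0, 49.2 and 67.0 CPM (0.09, SE 0.19, adjusted p = 0.97), with mouse 1 lowest. The summed level of the 14 proximal tubule markers was 6710, 20403, 4770 and 23354 CPM in these 4 mice, low in the same mice 1 and 3, and its part in the spread was not tested. That sum holds the very abundant, androgen-dependent gene Kap. Against vehicle, 8 of the 14 markers had values above 0 and 6 below, with a median log2 fold change of 0.05 and 0 called. Immune markers, at 918, 283, 176 and 360 CPM, were high in mouse 1 alone. Without mouse 1 the Rxra value was 0.39 (adjusted p = 0.22) and that of Esrra was 0.26 (adjusted p = 0.657), still short of the threshold, while the number of genes called over the whole table went from 0 to 380, and it was 1 without mouse 3.

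In females, Ppargc1b was at 7.03, 8.18, 7.68 and 9.06 CPM on vehicle and at 11.2, 9.35, 10.1 and 14.9 CPM on NR in Alport mice. Every treated mouse was above every vehicle-treated mouse, and the log2 fold change was 0.52 (SE 0.17), but the adjusted p was 0.19. Such a gap was seen in 9.18% of all genes in this comparison and in 1 of the 10 members. Rxra was at 98.9, 120, 100 and 110 CPM on vehicle and at 114, 121, 137 and 150 CPM on NR, overlapping by 1 mouse of each group (0.29, SE 0.11, adjusted p = 0.248). Ppargc1a was at 54.3, 76.8, 48.3 and 56.2 CPM on vehicle and 58.9, 61.5, 79.2 and 85.5 CPM on NR (0.28, SE 0.17, adjusted p = 0.421). Ppara was at 43.1, 37.9, 49.2 and 84.6 CPM on NR (0.14, SE 0.24, adjusted p = 0.791). The 1 high value, of mouse 4, carried the sign of that difference, which was −0.17 (adjusted p = 0.609) without it. In the NR-treated female Alport mice, immune markers summed to 578, 417, 202 and 91.8 CPM and fibroblast markers to 1050, 989, 476 and 343 CPM, lowest in the same mouse 4, and the part of these cell types was not tested.

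**Figure D3:**
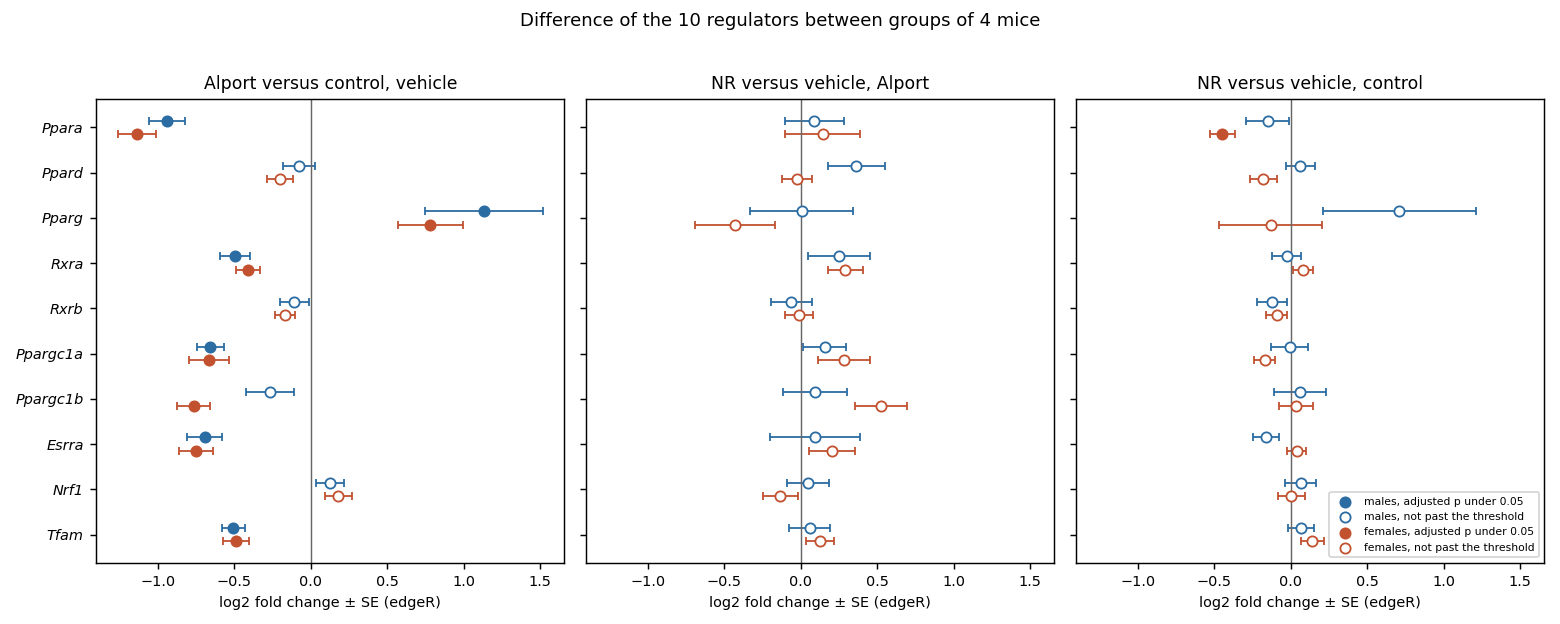
Log2 fold change with its standard error (edgeR, 4 against 4 mice) of each member in 3 comparisons, males in blue and females in orange, filled where the adjusted p was under 0.05. Filled points are found for Alport against control mice, 6 in males and 7 in females, and for NR in controls only at female Ppara.

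In control mice, NR gave 1 called difference among the members, a fall of Ppara in females. Ppara was at 107, 120, 100 and 115 CPM in vehicle-treated female controls and at 75.3, 91.3, 72.8 and 86.8 CPM in NR-treated ones. All treated mice lay below all vehicle-treated mice, and the log2 fold change was −0.45 (SE 0.08, adjusted p = 0.0121), or 0.734 times the vehicle level. In this comparison 6.18% of 14951 genes were called, 2.27% fell and 14.6% did not overlap between the groups. The call held without any 1 mouse (adjusted p at most 0.0415) but not in 1 fit of all 32 mice, which shares 1 estimate of the spread (−0.44, SE 0.20, adjusted p = 0.421). In males Ppara was at 101, 114, 114 and 89.5 CPM on vehicle and at 71.4, 105, 83.6 and 115 CPM on NR, with wide overlap (−0.15, SE 0.14, adjusted p = 0.56). None of the 10 members was called in male controls by edgeR, DESeq2 or limma-voom, 0 were under an unadjusted p of 0.05 where 23.1% of genes were, and 4.53% of 14696 genes were called. The 9 other members in female controls had log2 fold changes from −0.18 to 0.14, the smallest adjusted p being that of Ppargc1a (−0.17, SE 0.07, adjusted p = 0.167). Proximal tubule markers summed to 17672, 32046, 19113 and 27978 CPM in the NR-treated male controls, all below the vehicle-treated male controls, with 2 of 14 called lower, 1 higher and a median log2 fold change of −0.24. They summed to 17212 to 21053 CPM in NR-treated female controls, within the range of the vehicle-treated ones. These sums hold the very abundant, androgen-dependent gene Kap, which ran from 7.01 to 13301 CPM over the 32 mice. Gene by gene, 1 of the 14 was called lower and 0 higher in female controls. There 9 values were below 0, with a median log2 fold change of −0.10. Of 9 distal nephron markers, 2 were higher and 1 lower with NR in female controls. In male controls 7 of 8 endothelial and 4 of 9 fibroblast markers rose with NR, while 0 of either list were called in female controls. The part of these cell types in the values was not tested.

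Known PPAR target genes rose with NR in controls of both sexes and in Alport females, and passed the test in Alport males only under some settings. In male controls 20 of 33 tested PPAR targets were higher and 0 lower, with a median log2 fold change of 0.72. These were led by Ehhadh, the peroxisomal bifunctional enzyme of fatty acid oxidation (1.19, SE 0.12, adjusted p = 0.0012), and included Cyp4a14, a fatty acid hydroxylase and classical PPARα target (5.89, SE 0.66, adjusted p = 0.0026). The Cyp4a genes and Acot1 and Acot2 have close copies in the genome with which reads may be shared, so that their single values are uncertain. The count fell to 5, 7 or 8 without vehicle-treated mouse 1, 2 or 4 and to 12 without NR-treated mouse 1 or 3. In female controls 25 of 33 were higher and 0 lower (median 0.52), with Acaa2, a thiolase of mitochondrial fatty acid oxidation, at 0.67 (SE 0.08, adjusted p = 0.00158) and Fabp1, the liver-type fatty acid binding protein, at 3.40 (SE 0.52, adjusted p = 0.00421). That count was 14 to 16 without vehicle-treated mouse 3 or 4 or NR-treated mouse 1, 3 or 4, 14 with a replicate block and 1 in the fit of all 32 mice.

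In Alport females 11 of 34 targets were higher with NR and 0 lower (median 0.96), with Fabp1 at 3.94 (SE 0.24, adjusted p = 0.000258) and Cyp4a10, another fatty acid hydroxylase, at 2.05 (SE 0.25, adjusted p = 0.0102). The count was 23 by DESeq2, 21 in the fit of all 32 mice, and 2, 3 and 2 without vehicle-treated mouse 1, 3 and 4. NR-treated mouse 4 had the highest target sum, 24400 CPM against 12220 to 14374 CPM in the others, and without it the count was 15. Cell type markers were not called there, but all 10 immune markers had negative values (median −0.76) and all 8 endothelial markers positive ones (sums of 681 to 812 against 547 to 622 CPM), and their part was not tested. In Alport males edgeR called 0 of 34 targets at a median of 0.89, with 24 under an unadjusted p of 0.05, 11 were called by DESeq2 and in the fit of all 32 mice, and 10 by edgeR without NR-treated mouse 1. Cyp4a14 there had a log2 fold change of 5.19 (SE 0.66, adjusted p = 0.252). Each NR comparison of a genotype and sex has its own vehicle mice, which the Alport against control comparison also uses. The summed level of the 36 targets was 13312 to 16477 CPM in vehicle-treated and 21920 to 23298 CPM in NR-treated male controls, and 11171 to 13690 against 14766 to 21435 CPM in female controls. In female controls the target sum was thus higher in the same treated mice in which Ppara was lower. Abundant genes weigh most in such a sum, which includes Fabp1, the Cyp4a genes, Acot1 and Acot2. The share of single genes in it was not examined.

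**Figure D4:**
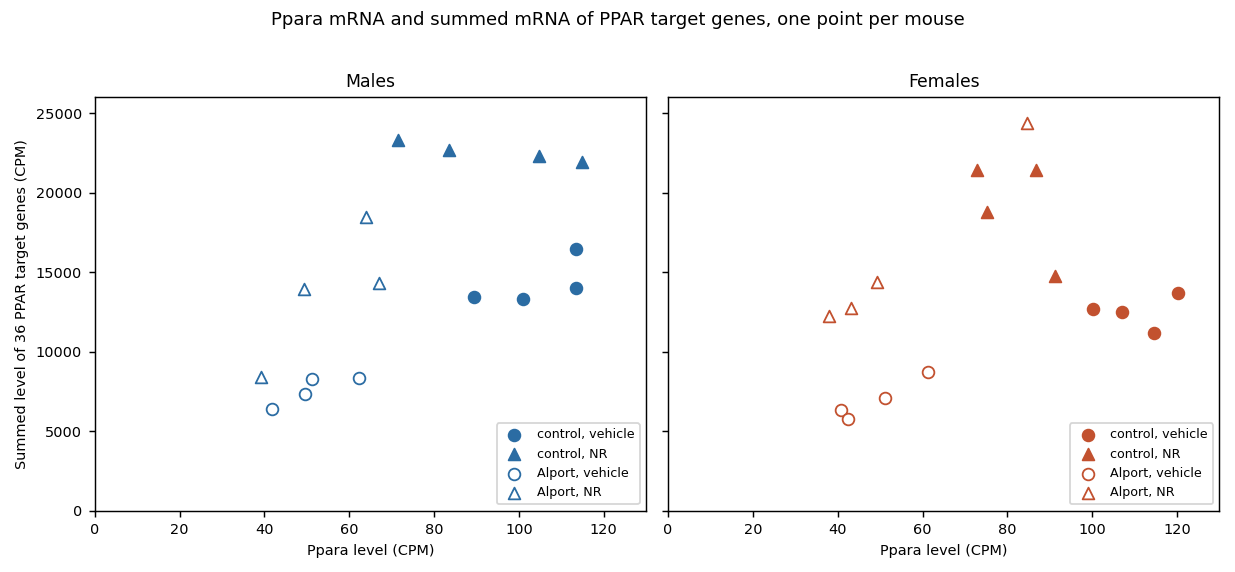
Ppara level (CPM, horizontal axis) against the summed level of 36 PPAR target genes (CPM, vertical axis) in each mouse, males on the left and females on the right, filled for controls and open for Alport mice, circles for vehicle and triangles for NR. The NR-treated female controls lie to the left of and above the vehicle-treated female controls, and every NR-treated mouse lies above all 4 vehicle-treated mice of its genotype and sex. For NR-treated male Alport mouse 1 the margin is narrow, with a target sum of 8375 CPM against 8316 CPM in vehicle-treated male Alport mouse 4.

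By edgeR, genes of the mitochondrial arm were called with NR mainly in female controls, but their median changes were larger in Alport females. For the 13 mRNAs of mitochondrial DNA the median was 0.66 in Alport females and 0.16 in female controls. Of the 13 mRNAs of mitochondrial DNA, 0 were called in Alport mice of either sex, with 12 values above 0 and a median of 0.26 in males and 13 above 0 and a median of 0.66 in females, where DESeq2 called 10 higher. Under an unadjusted p of 0.05 there were 0 in males and 12 in females, where 5.06% and 16.7% of all genes were. In controls, 0 were called in males and 1 in females, mt-Nd6 of complex I (0.60, SE 0.12, adjusted p = 0.0136). It was not called in the fit of all 32 mice. This gene lies on the other strand of mitochondrial DNA than the remaining 12. Its value is less certain, since the strand setting of the counting is not given in the sources used here. Of 24 nuclear genes of the respiratory chain and citric acid cycle, 8 rose in female controls (median 0.23), where 3.91% of all genes rose, a count that was 19 by DESeq2, 3 with a replicate block, 0 in the fit of all 32 mice, and 4 or 5 without vehicle-treated mouse 2, 3 or 4 or NR-treated mouse 2 or 3. Etfdh, which passes electrons from fatty acid oxidation to ubiquinone, had the lowest p of them (0.41, SE 0.07, adjusted p = 0.0103). In the other NR comparisons 0 of 24 were called, with medians of 0.12 in male controls, 0.18 in Alport males and 0.33 in Alport females, and with 4, 0 and 16 under an unadjusted p of 0.05. DESeq2 called 1, 0 and 4 of them. None of the 16 genes of mitochondrial DNA copying and transcription was called with NR in any of the 4 comparisons by edgeR, DESeq2 or limma-voom, and 1, 3, 0 and 1 were under an unadjusted p of 0.05 in male controls, female controls, Alport males and Alport females, and Tfam itself lay between 0.06 and 0.14.

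**Figure D5:**
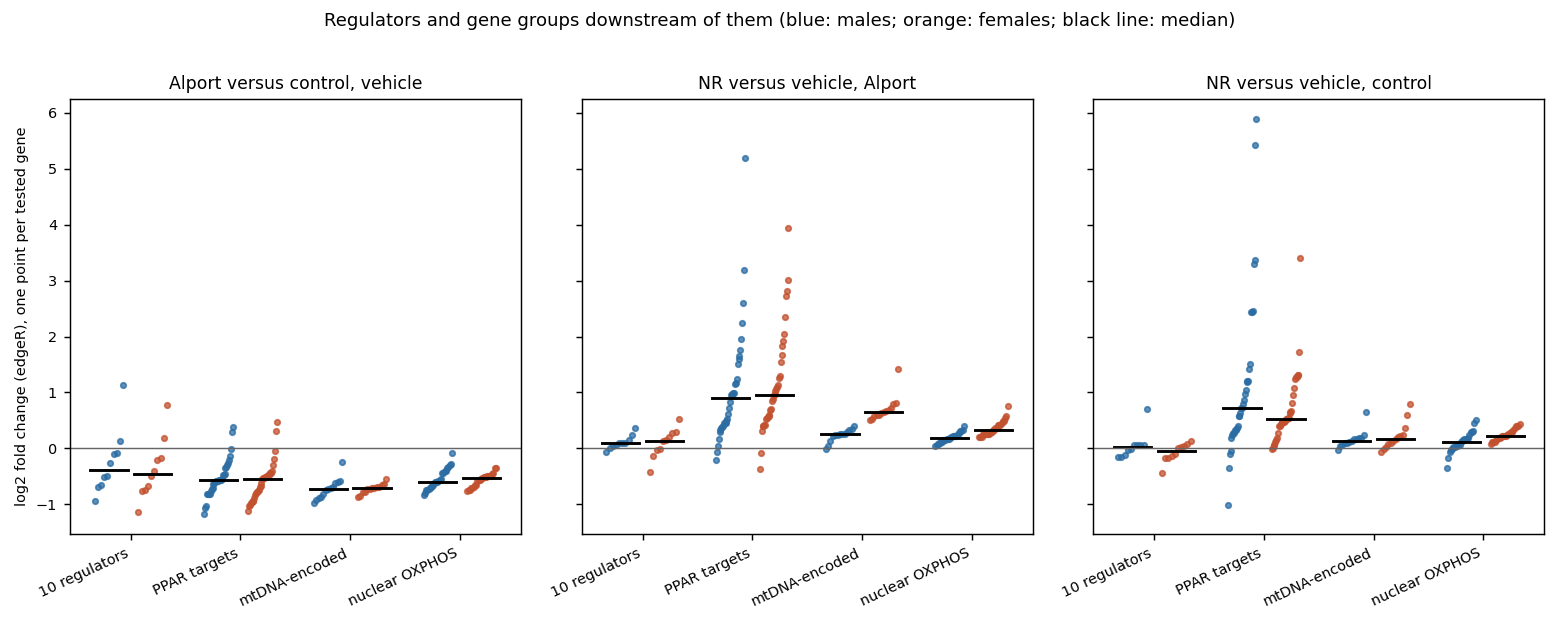
Log2 fold change (edgeR) of every tested gene, a point each, for the 10 regulators, the PPAR targets, the 13 mRNAs of mitochondrial DNA and the nuclear genes of oxidative phosphorylation (OXPHOS), males in blue and females in orange, with medians as black lines. With NR the medians of the PPAR targets lie between 0.52 and 0.96, and those of the regulators between −0.04 and 0.14.

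NR-treated Alport mice were also set against vehicle-treated controls, which are the same control mice as in the comparison on vehicle. In males 3 of 10 members were lower and 0 higher, against 21.2% of 15077 genes called and 6.81% lower. These were Ppara (log2 fold change −0.87, SE 0.18, adjusted p = 0.0113), Ppargc1a (−0.52, SE 0.14, adjusted p = 0.032) and Tfam (−0.46, SE 0.13, adjusted p = 0.0299). The last 2 calls were lost with a replicate block (adjusted p = 0.0604 and 0.0599) and when control mice 1, 2 or 3 were left out, with adjusted p of 0.0661 to 0.091, and that of Tfam also without control mouse 4 (0.0747) or NR-treated mouse 3 (0.056). Esrra had a like value with a wide error (−0.62, SE 0.28, adjusted p = 0.145), which passed in the fit of all 32 mice (adjusted p = 0.00455), where 6 members were called. In females 4 of 10 were lower and 0 higher, against 23.5% of 15381 genes called and 11.6% lower. They were Ppara (−1.03, SE 0.22, adjusted p = 0.00814), Esrra (−0.59, SE 0.11, adjusted p = 0.0051), Tfam (−0.40, SE 0.08, adjusted p = 0.00777) and Ppargc1a (−0.42, SE 0.13, adjusted p = 0.0368). The Ppargc1a call was lost with a replicate block (adjusted p = 0.0724) and without control mouse 1, 2 or 3 or NR-treated mouse 1 or 2 (0.0756 to 0.118). Ppargc1b, Rxra and Pparg were not called there, at −0.28 (SE 0.15), −0.16 (SE 0.10) and 0.32 (SE 0.28). Without NR-treated mouse 4, Ppargc1b was at −0.41 with an adjusted p of 0.0226. Without control mouse 3, Ppard was at −0.35 with an adjusted p of 0.047.

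Between vehicle-treated controls of the 2 sexes, 2 members differed, where 31.7% of 14990 genes did. Ppard was at 26.9, 23.5, 25.1 and 21.5 CPM in males and at 34.3, 34.8, 26.8 and 33.5 CPM in females. Female mouse 3 fell within the male range and the others lay above it, with a log2 fold change of 0.44 (SE 0.10, adjusted p = 0.00546) in females against males. Rxra was at 202, 208, 209 and 168 CPM in males and at 149, 145, 137 and 154 CPM in females, lower in every female (−0.40, SE 0.08, adjusted p = 0.00249). Non-overlap held for 1 member, Rxra, and for 32.2% of all genes. Ppara did not pass (0.11, SE 0.09, adjusted p = 0.372), nor did Ppargc1a (0.21, SE 0.08, adjusted p = 0.073), which with a replicate block had an adjusted p of 0.0462 and without female mouse 4 one of 0.0439. Without female mouse 1, Tfam was at −0.25 with an adjusted p of 0.0238. Proximal tubule markers summed to less in female than in male controls, as given above, a sum that holds the androgen-dependent and very abundant gene Kap. Of the 14 markers, 2 were higher and 5 lower in females, with a median log2 fold change of 0.11.

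Whether the changes themselves differed between groups was tested with interaction terms. The effect of genotype differed between the sexes for 0 of 10 members (edgeR, 0.532% of 16152 genes called), with 1 member, Ppargc1b, and 12% of genes under an unadjusted p of 0.05. The effect of NR differed between Alport and control mice for 0 members in males and 0 in females, where 0% of 15800 and 16064 genes were called. In males 0 members and 8.85% of genes were under an unadjusted p of 0.05. In females 2 members and 9.47% of genes were, Ppargc1a (0.43, SE 0.19, adjusted p = 0.5) and Ppargc1b (0.47, SE 0.20, adjusted p = 0.491), and Ppara had 0.57 (SE 0.27, adjusted p = 0.528). For Ppara this sets a fall in controls against no called difference in Alport mice, and the value was 0.28 (adjusted p = 0.719) without NR-treated Alport mouse 4. DESeq2 and limma-voom called 0 members in the 3 interactions too.

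Across all 32 mice, the genes whose log2 CPM followed each member most closely were described by Pearson's r, with no test, since the mice share groups and libraries. The closest to Ppara was Vdr, the vitamin D receptor (r = 0.946), followed by the transcription factor gene Hlf (r = 0.938) and Peli2 (r = 0.933). Rxra was followed by Setd3 (r = 0.958), Dao, which encodes D-amino acid oxidase (r = 0.950), and Furin (r = 0.945). Ppargc1a had Klhl3 (r = 0.942) and Ptgfr (r = 0.939) among the closest to it. Esrra had Dynll2 (r = 0.974), Isoc2a (r = 0.970) and Idh3g, a subunit of isocitrate dehydrogenase (r = 0.969), and Tfam had Echs1, an enzyme of fatty acid oxidation (r = 0.963), and Adk, adenosine kinase (r = 0.962), among its closest. The highest r of other members was 0.883 for Rxrb (Rnf187), 0.778 for Ppard (Wfs1), 0.773 for Pparg (Exosc8) and 0.646 for Nrf1 (Wdr77), out of 14044 genes compared.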

How the data were processed

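The authors deposited 1 table of raw read counts per gene (32544 genes, 32 kidney cortex libraries), made from poly(A) RNA with build mm10 and analysed by them in BioJupies. The aligner, annotation and strand setting are not given in the sources used here. Groups were taken from the labels. The members and gene lists were chosen with earlier results of these data known. Each comparison used edgeR 4.0.16 (R 4.3.3) on the 8 mice concerned, or 16 for an interaction, with filterByExpr (minimum count 10), TMM scaling, the quasi-likelihood F test and Benjamini-Hochberg adjustment over all genes tested (threshold 0.05). Levels are CPM on TMM-scaled library sizes of all 32 mice. The edgeR test gives no standard error. Each SE of an edgeR value was derived as the absolute log2 fold change divided by the square root of F. Alternatives were DESeq2 1.42.0, limma-voom (limma 3.58.1), RLE size factors, no filter, 1 fit of all 32 mice, a replicate block and leaving out each mouse. List counts under alternatives were added after seeing the data. Beside all members, at most the 4 genes of smallest p per list and comparison were named, and the 3 genes most like each member (mean CPM at least 1), of which some are not reported here. No set test was run. Scripts were tested on simulated data. P-values weigh a difference of group means against the spread between these mice.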

Additional observations from a re-analysis of the deposited data

Results flagged for a closer look

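In 4 of the 80 sets of 4 mice (10 members in 8 groups), 1 mouse stood apart by Dixon's criterion, which sets its gap to the nearest mouse against the range of the 4. Chance alone gives about 1 in 20 such sets. Ppard in vehicle-treated female control mouse 3 was at 26.82 CPM, with the others at 33.5 to 34.8 CPM. In vehicle-treated male control mouse 4, Rxra was at 168.3 CPM against 202 to 209 CPM in the others, and Nrf1 was at 15.37 CPM against 18.7 to 19.4 CPM. Nrf1 in NR-treated female Alport mouse 1 was at 14.39 CPM, with the others at 19.2 to 19.3 CPM. Male control mouse 4 was also the lowest of its group in Ppara, Ppard, Ppargc1a and Ppargc1b.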

How the results depend on the processing

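Of the 23 calls among members, 18 were kept in each of the 6 alternatives (DESeq2, limma-voom, RLE size factors, no low-count filter, 1 fit of all 32 mice, replicate block), 19 without any 1 mouse, and 17 in both, and 0 changed sign. The count of members called went from 1 to 0 for NR in control females in the fit of all 32 mice. For NR-treated Alport males against vehicle-treated controls it went from 3 to 6 in that fit, to 1 with the replicate block, and lay between 1 and 3 without 1 mouse. The replicate block left the counts at 6 in Alport males and 7 in Alport females. The labels do not state whether replicate numbers pair the mice. In 36 pairs of same-numbered mice, deviations from the group means had correlations of −0.17 to 0.26, 5 of them over 0.1. Of the 32 mice, 10 correlated best with their own number. Weak correlations cannot settle whether mice were paired, for example by litter. The cause of these changes was not tested. Low counts limit Pparg, and 4 mice a group limit all members.

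Changes of sign were seen only for values that were not called. Log2 differences without 1 mouse ranged as follows. For NR in Alport males, they were Pparg from −0.13 to 0.20, Ppara from −0.0253 to 0.22, Rxrb from −0.18 to 0.0034, Esrra from −0.13 to 0.27, Nrf1 from −0.0773 to 0.14, Ppargc1b from −0.10 to 0.20 and Tfam from −0.0099 to 0.15. For NR in Alport females, they were Ppard from −0.0818 to 0.0511, Rxrb from −0.0669 to 0.0577 and Ppara from −0.17 to 0.28. For NR in control males, they were Ppargc1a from −0.12 to 0.0816, Ppargc1b from −0.0809 to 0.16, Nrf1 from −0.0055 to 0.10, Rxra from −0.0942 to 0.0216 and Tfam from −0.0114 to 0.10. For NR in control females, they were Nrf1 from −0.0501 to 0.0405, Ppargc1b from −0.0365 to 0.11 and Pparg from −0.52 to 0.0416. For NR-treated Alport against vehicle-treated control females, they were Nrf1 from −0.0495 to 0.12. For female against male controls, they were Nrf1 from −0.0562 to 0.0602. For the sex-genotype interaction, they were Nrf1 from −0.0372 to 0.0886, Tfam from −0.10 to 0.11, Ppargc1a from −0.21 to 0.0538, Rxra from −0.0212 to 0.18, Rxrb from −0.14 to 0.0205 and Esrra from −0.17 to 0.11. For the NR-genotype interaction in males, they were Ppargc1b from −0.17 to 0.16, Tfam from −0.0855 to 0.0779, Rxrb from −0.0853 to 0.11 and Nrf1 from −0.16 to 0.0693. For the NR-genotype interaction in females, they were Tfam from −0.0914 to 0.0384 and Pparg from −0.49 to 0.0688.

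Other settings turned the sign as follows. With replicate block the value was −0.0132 for Pparg (NR in Alport males), −0.0065 for Esrra (NR in Alport males) and −0.0001 for Nrf1 (NR-treated Alport against vehicle-treated control females). With no low-count filter the value was −0.0021 for Nrf1 (NR in control females). In 1 fit of all 32 mice it was −0.0088 for Nrf1 (female against male controls), 0.0411 for Ppargc1a (the sex-genotype interaction), 0.0646 for Tfam (the sex-genotype interaction), 0.005 for Nrf1 (the NR-genotype interaction in males) and 0.0092 for Tfam (the NR-genotype interaction in males). With DESeq2 the value was 0.0232 for Tfam (the sex-genotype interaction) and −0.0159 for Ppargc1b (the NR-genotype interaction in males). With RLE size factors the value was 0.001 for Ppargc1a (the sex-genotype interaction), 0.0253 for Tfam (the sex-genotype interaction) and −0.0164 for Ppargc1b (the NR-genotype interaction in males). With limma-voom the value was −0.0453 for Ppargc1b (the NR-genotype interaction in males).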
